A study of Drosophila melanogaster with 24 samples.

Results

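Neuropeptides are cut from larger precursor proteins, stored in dense-core vesicles and released as hormones or as modulators of synapses. Most act through G protein-coupled receptors, and a peptide and its receptor are often made by different cells. In Drosophila melanogaster these pairs are known for their parts in feeding, energy stores, water balance, daily rhythms and movement. The genes described here were 51 named precursors and receptors, 28 of them peptide precursors and 23 receptors, taken by name as a group. The list was drawn up with earlier results of these data known. Of these, 38 had a probe set assigned to that gene alone, covering 24 precursors and 14 receptors, and 13 were not matched to such a probe set and have no value here. The 13 were Tk, AstA, AstA-R1, AstA-R2, CapaR, MsR1, MsR2, FMRFaR, Dsk, CCKLR-17D1, Hug, PK2-R1 and ETHR, so the tachykinin precursor itself was not measured. Where a gene had several probe sets, which was the case for 5 members, the probe set of highest mean Signal was used.

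The samples came from an artificial selection experiment on locomotor reactivity, the activity of a fly after a mechanical disturbance, started from a base population of isofemale lines from Raleigh. There were 3 selection groups, High (selected for high activity), Low (selected for low activity) and Control (not selected), each kept as 2 separate lines. At generation 25, RNA of pooled whole virgin flies aged 3 to 7 days was hybridised to Affymetrix Drosophila arrays, with 2 replicate samples for each sex of each line, which gives 24 arrays, 8 per group, 4 per line and 12 per sex. The 6 lines are the units that were selected, and lines of a group can also differ through drift. By the study's methods, 2 founding bottles were each divided into 3, for High, Low and Control. The sample labels do not say whether the line numbers follow these bottles.

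Signal, the linear intensity that the array software gives for a probe set, is in arbitrary units, and Signal of different probe sets cannot be set against each other. A probe set was tested if its median Signal over the 24 arrays was at least 75, which held for 11439 of 18769 probe sets. Among the 38 matched members 28 passed, 20 precursors and 8 receptors, and 21 of them had a Signal of at least 75 on all 24 arrays. The other 10 were below that level and were not tested. They were the receptors TkR86C (median Signal 36.3), AstC-R1 (57.4), Dh44-R1 (45.9), CCAP-R (70.1), SIFaR (30.5) and ProcR (7.85), and the precursors CCAP (46.1), ETH (47.7), Eh (28.4) and amn (3.1). The ecdysis peptides ETH, Eh and CCAP, which act at the moults, were thus all under the threshold by their median over the 24 arrays, with 6, 3 and 6 arrays at 75 or more. CCAP, although not tested, differed visibly between its samples in the deposited scaling. Its female samples ran from 14.7 to 42.9 (n = 12) and its male samples from 49.2 to 147.5 (n = 12), without overlap. Such a separation of the sexes held for 45.8% of all probe sets tested (17.1% with males higher). The Low males, at 110.7 to 147.5 (129 ± 15.7, n = 4), were all above the threshold and above the High males, at 49.2 to 97.3, and the Control males, at 49.2 to 84.9. How many of all probe sets set the Low males apart in this way was not counted. The members nearest the threshold were NPFR, inside it at a median of 78.6, and CCAP-R, outside it at 70.1.

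**Figure D1:**
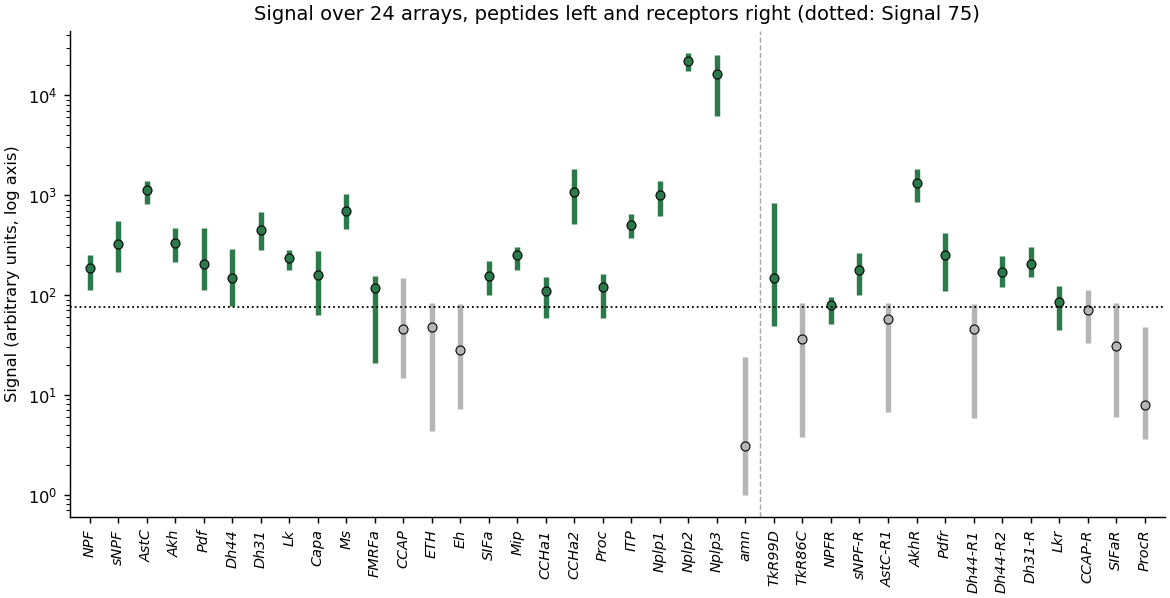
Signal (arbitrary units, log axis) of the 38 matched members over 24 arrays, with precursors left of the dashed line and receptors right of it. Bars run from the lowest to the highest array, points are medians, green members were tested, grey members had a median below the dotted line at Signal 75, and 10 of 38 members are grey; heights of different genes are not comparable because each probe set has its own response.

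TkR99D, a receptor for tachykinins, which in flies modulate olfactory input and aggression, differed more between lines than any other member tested. In High line 1 its Signal was 424 and 584 in the female samples and 614 and 614 in the male samples. High line 2 gave 233 and 245 in females and 199 and 167 in males. All 8 High arrays were therefore at 167 or above, and those of line 1 lay above those of line 2. In Low line 1 the female samples had 69.4 and 48.4 and the male samples 57.5 and 91.5. Low line 2 had 106 and 71.1 in females and 126 and 61.4 in males. The Low arrays, 48.4 to 126, did not overlap with the High arrays, 167 to 614, in either sex. Control line 1 gave 684 and 831 in females and 672 and 539 in males. Control line 2 gave 59.2 and 72.4 in females and 74.0 and 81.0 in males. The Control lines thus lay at opposite ends: line 1 was in the range of High line 1 or above it, and line 2 was in the range of the Low lines. Of the 24 arrays, 16 had a Signal of at least 75, and the 8 below it were all in the Low lines and Control line 2, so the low end of this gene lay near the threshold.

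**Figure D2:**
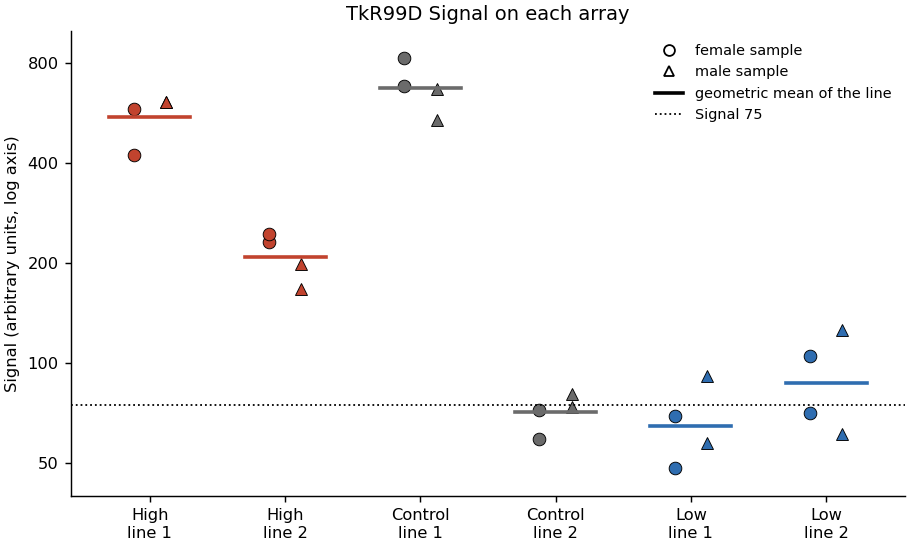
TkR99D Signal (arbitrary units, log axis) on each of the 24 arrays, by line, with circles for female samples, triangles for male samples, bars for the geometric mean of a line and a dotted line at Signal 75. Control line 1 (539 to 831) lies with High line 1 (424 to 614), and Control line 2 (59.2 to 81.0) with the Low lines (48.4 to 126).

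The line effect on TkR99D, tested with limma over the 6 lines, had an adjusted p of 1.62e-07. It was the 1 member of 28 with a line effect at an adjusted p below 0.001, a share of 3.57% beside 4.76% of all probe sets tested, while 14 members had an unadjusted p below 0.05. The High minus Low difference was 2.17 on the log2 scale (SE 0.16, adjusted p = 5.49e-07), a 4.51-fold higher level in High. In females it was 2.28 (SE 0.22, adjusted p = 2.49e-05) and in males 2.07 (SE 0.22, adjusted p = 7.49e-05). Control was 1.54 above Low (SE 0.16, adjusted p = 3.23e-05) and High was 0.63 above Control (SE 0.16, adjusted p = 0.0188), but both averages were taken over Control lines that stood apart. Control line 1 exceeded Control line 2 by 3.24 on the log2 scale (SE 0.22, adjusted p = 4.71e-06), a larger difference than that between High and Low. High line 1 exceeded High line 2 by 1.41 (SE 0.22, adjusted p = 0.00243), and the difference between the Low lines was -0.43 (SE 0.22, adjusted p = 0.308). The sexes differed by 0.03 (SE 0.13, adjusted p = 0.834). These p-values, and those that follow, are limma's after Benjamini-Hochberg adjustment over all probe sets tested, and they measure the spread between replicate samples within lines, not the spread between lines. When each line counted as a single value, its mean, limma called 0 of the 11439 probe sets in each of the 3 contrasts between selection groups, members included, while 4 members had an unadjusted p below 0.05 in High against Low and 5 in each contrast with Control.

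Between High and Low, 6 of 28 members passed at an adjusted p below 0.05, which is 21.4% beside 15.7% of all probe sets tested. Over all of these, 7.85% were called higher and 7.89% lower in High. In the High lines 4 members were higher, the receptors TkR99D and sNPF-R and the precursors Lk and ITP, and 2 were lower, the precursor CCHa2 and the receptor Pdfr. At an unadjusted p below 0.05 there were 10. The median difference of the members was 0.0552 on the log2 scale, beside -0.0112 over all probe sets tested. RNA came from whole flies, so fewer cells of a type and less RNA per cell cannot be told apart in any of these values. The split of 4 higher and 2 lower was 3 and 3 after each array was centred on its median within each sex.

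The sNPF-R transcript encodes the receptor of short neuropeptide F, a peptide known to promote feeding. In females its Signal ran from 156 to 181 in High (171 ± 10.3, mean ± SD, n = 4), from 142 to 203 in Control (179 ± 27.1, n = 4) and from 99.6 to 139.7 in Low (128 ± 19.0, n = 4). In males it ran from 182 to 262 in High (234 ± 36.3, n = 4), from 189.5 to 228 in Control (214 ± 16.9, n = 4) and from 156 to 201 in Low (174 ± 19.0, n = 4). Every Low female sample was below every High and every Control female sample, whereas the Low and High male samples overlapped. How many of all probe sets tested separate the 4 samples of a group and sex in this way was not counted. That limit also holds for ITP, CCHa2, AkhR, Nplp1 and AstC below. High exceeded Low by 0.43 on the log2 scale (SE 0.09, adjusted p = 0.00537) and Control exceeded Low by 0.39 (SE 0.09, adjusted p = 0.00986), while High minus Control was 0.03 (SE 0.09, adjusted p = 0.865). The line means stood in the same arrangement, with 141 and 161 in the Low lines and 193 to 211 in the other lines. The precursor sNPF gave 0.06 for High minus Low (SE 0.12, adjusted p = 0.796) and 0.26 for Control minus Low (SE 0.12, adjusted p = 0.171).

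Lk encodes leucokinin, a diuretic peptide that acts on the Malpighian tubules. High line 1 had a Signal of 247 and 234 in females and 258 and 244 in males, and High line 2 had 249 and 235 in females and 281 and 247 in males. Low line 1 had 207 and 215 in females and 201 and 210.5 in males, and Low line 2 had 188 and 180.1 in females and 230.1 and 209.7 in males. The highest Low array, 230.1, was below the lowest High array, 234, so these groups did not overlap. That was so for 2 of the 28 members, Lk and TkR99D, and for 0.962% of all probe sets tested. Control line 1 ran from 243 to 267 and Control line 2 from 179 to 236, so the Control lines spanned both. High exceeded Low by 0.28 on the log2 scale (SE 0.06, adjusted p = 0.00464), a 1.22-fold difference, and Control exceeded Low by 0.21 (SE 0.06, adjusted p = 0.0259). High minus Control was 0.07 (SE 0.06, adjusted p = 0.498). The receptor Lkr ranged from 44.1 to 123 and gave 0.11 for High minus Low (SE 0.20, adjusted p = 0.751).

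ITP encodes ion transport peptide, an antidiuretic hormone first described in locusts. In females the ranges were 379 to 498 in High (448 ± 51.4, n = 4), 465 to 579 in Control (519 ± 48.1, n = 4) and 372 to 385 in Low (377 ± 5.67, n = 4). In males they were 503 to 617 in High (566 ± 53.0, n = 4), 504 to 649.8 in Control (579.8 ± 59.8, n = 4) and 458 to 593 in Low (519 ± 66.1, n = 4). Low females were tightly grouped and below all Control females, and the male ranges overlapped in all 3 groups. Control exceeded Low by 0.31 on the log2 scale (SE 0.06, adjusted p = 0.00233) and High exceeded Low by 0.18 (SE 0.06, adjusted p = 0.0394), while High minus Control was -0.12 (SE 0.06, adjusted p = 0.182). The High minus Low call was lost on leaving out any of 13 of the 24 arrays.

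CCHa2 encodes CCHamide-2, a peptide of gut and fat body that signals nutritional state to the brain. Its Signal in High ran from 513 to 1087 with a median of 794 (n = 8). In Control it ran from 765 to 1837 with a median of 1085, and in Low from 1017 to 1448 with a median of 1099. The High females, 513 to 831, were all below the Low females, 1017 to 1330.4, and in males 1 High sample, at 1087, reached into the Low range of 1086 to 1448. High minus Low was -0.56 on the log2 scale (SE 0.12, adjusted p = 0.00519), a 0.676-fold level, and High minus Control was -0.52 (SE 0.12, adjusted p = 0.0117), whereas Control minus Low was -0.04 (SE 0.12, adjusted p = 0.845). The mean Signal of High line 2, 683, was below that of High line 1, 912, and the other 4 lines lay between 1017 and 1285. Without High line 2 the High minus Low difference was -0.35 and did not pass.

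Pdfr is the receptor of pigment-dispersing factor, the peptide by which clock neurons set daily activity. High arrays ran from 108 to 287 with a median of 191 (n = 8), Control arrays from 238 to 414 with a median of 300.1 and Low arrays from 222 to 339 with a median of 252. The High range overlapped with both others, and its lowest value, 108, was in High line 2. The line means were 219.8 and 176 in High, 288 and 329 in Control and 263 and 265 in Low. High minus Control was -0.67 on the log2 scale (SE 0.14, adjusted p = 0.00589), a 0.63-fold level, and High minus Low was -0.45 (SE 0.14, adjusted p = 0.0383). Control minus Low was 0.22 (SE 0.14, adjusted p = 0.301). The High minus Low call was lost on leaving out any of 9 of the 24 arrays. The peptide gene Pdf gave 0.18 for High minus Low (SE 0.19, adjusted p = 0.566) and 0.04 for High minus Control (SE 0.19, adjusted p = 0.919).

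**Figure D3:**
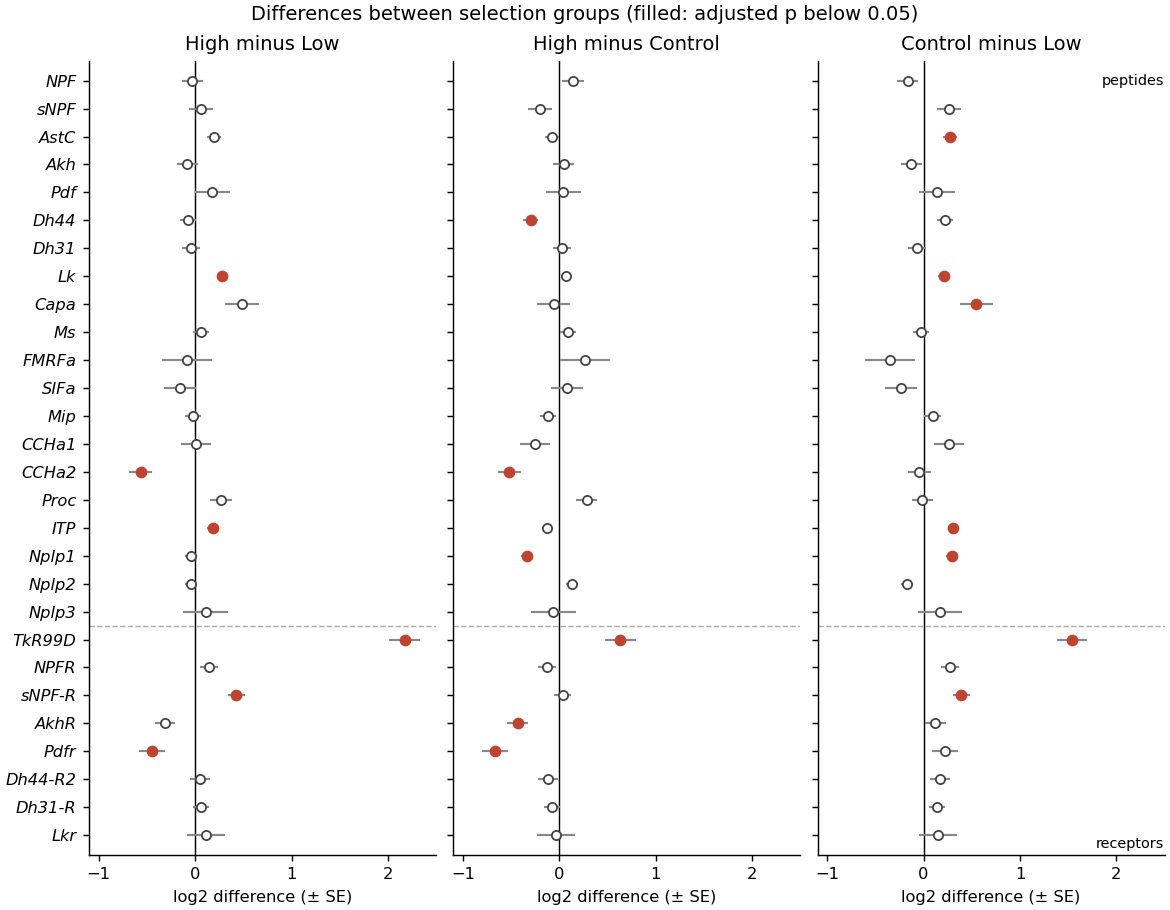
Log2 differences in Signal (points, with SE bars) of the 28 members tested for High minus Low, High minus Control and Control minus Low, with precursors above the dashed line and receptors below it. Filled points had a limma adjusted p below 0.05: 6, 6 and 7 members, and TkR99D has the largest difference in High minus Low (2.17) and Control minus Low (1.54).

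Between High and Control, 6 of 28 members passed, 21.4% beside 11.2% of all probe sets tested, and 8 had an unadjusted p below 0.05. TkR99D was higher in High, and 5 were lower in High: CCHa2 and Pdfr, described above, with AkhR, Dh44 and Nplp1. Of all probe sets tested, 4.36% were called higher and 6.82% lower in High. The median difference of the members was -0.0612 on the log2 scale, beside -0.0209 over all probe sets tested. These comparisons share arrays, since the High arrays enter both this and the High against Low comparison, and the Control arrays enter both this and the Control against Low comparison.

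AkhR is the receptor of adipokinetic hormone, which mobilises lipid and sugar stores of the fat body. In females its Signal was 936 to 1422 in High (1117 ± 211, n = 4), 1462 to 1687 in Control (1536 ± 103, n = 4) and 1297 to 1838 in Low (1449 ± 260.2, n = 4). In males it was 855 to 1367 in High (1039.5 ± 231, n = 4), 1069 to 1509 in Control (1353 ± 195, n = 4) and 1177 to 1274 in Low (1213 ± 44.6, n = 4). The High and Control females did not overlap and the males did. High minus Control was -0.43 on the log2 scale (SE 0.11, adjusted p = 0.0188) and High minus Low was -0.31 (SE 0.11, adjusted p = 0.0650). The hormone gene Akh gave 0.04 for High minus Control (SE 0.11, adjusted p = 0.852). A second AkhR probe set of lower Signal gave -0.49 for High minus Control (adjusted p = 0.0527) but -0.02 for High minus Low (adjusted p = 0.953). Its Control minus Low difference was 0.47 (adjusted p = 0.0502). For male minus female that probe set gave -0.67 (adjusted p = 0.000136), higher in females in the deposited scaling.

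Dh44 encodes the diuretic hormone related to vertebrate corticotropin-releasing factor, and Nplp1 a precursor of several neuropeptide-like peptides. For Dh44 the female samples had 77.7 to 135 in High (106 ± 25.3, n = 4), 114 to 149 in Control (128 ± 14.8, n = 4) and 117 to 144 in Low (129 ± 12.8, n = 4). The male samples had 178 to 242 in High (195 ± 31.5, n = 4), 210.3 to 292 in Control (241 ± 35.9, n = 4) and 137 to 239 in Low (178 ± 44.8, n = 4). All these ranges of Dh44 overlapped within a sex. Its High minus Control difference was -0.30 on the log2 scale (SE 0.08, adjusted p = 0.0318), its Control minus Low difference 0.22 (SE 0.08, adjusted p = 0.0811) and its High minus Low difference -0.07 (SE 0.08, adjusted p = 0.598). For Nplp1 the female samples had 621 to 874 in High (734 ± 104, n = 4), 908 to 1091 in Control (1001 ± 90.7, n = 4) and 739 to 801 in Low (765 ± 25.8, n = 4). The male samples had 949.5 to 1112 in High (1035 ± 67.5, n = 4), 1088 to 1396 in Control (1209.5 ± 136, n = 4) and 971 to 1099 in Low (1049.8 ± 60.8, n = 4). The Control females were above all High and Low females, and the Control males overlapped slightly with both. High minus Control of Nplp1 was -0.34 (SE 0.06, adjusted p = 0.00318), Control minus Low 0.29 (SE 0.06, adjusted p = 0.00683) and High minus Low -0.05 (SE 0.06, adjusted p = 0.680), so Control was the group that stood apart.

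Between Control and Low, 7 of 28 members passed, 25.0% beside 15.5% of all probe sets tested, and 10 had an unadjusted p below 0.05. All 7 were higher in Control: the receptors TkR99D and sNPF-R and the precursors AstC, Lk, Capa, ITP and Nplp1. Over all probe sets tested, 9.38% were called higher and 6.15% lower in Control. The median difference of the members was 0.161 on the log2 scale, beside 0.00738 over all probe sets tested. After each array was centred on its median within each sex, 3 members passed, 2 higher and 1 lower in Control. Without Control line 1 a single member passed, and without Low line 1 there were 2.

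AstC encodes allatostatin C, named in moths for its inhibition of juvenile hormone synthesis. Its Signal in females was 962 to 1122 in High (1046 ± 85.9, n = 4), 924 to 1213 in Control (1124 ± 134, n = 4) and 809 to 921 in Low (860.0 ± 51.9, n = 4). In males it was 1108 to 1306 in High (1232 ± 88.6, n = 4), 1107 to 1397 in Control (1283 ± 130.5, n = 4) and 1006 to 1235 in Low (1136 ± 97.2, n = 4). Low females were below all others of their sex, and the males overlapped. Control exceeded Low by 0.28 on the log2 scale (SE 0.07, adjusted p = 0.0193) and High minus Low was 0.20 (SE 0.07, adjusted p = 0.0762).

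Capa encodes the capability peptides, which act on the Malpighian tubules. In females it gave 97.8 to 194 in High (152 ± 40.7, n = 4), 124 to 187 in Control (152 ± 26.1, n = 4) and 63.4 to 136 in Low (106 ± 30.9, n = 4). In males it gave 178 to 274 in High (211 ± 45.5, n = 4), 189 to 255 in Control (223 ± 27.4, n = 4) and 121 to 222 in Low (157 ± 44.8, n = 4). All groups overlapped in both sexes. Control exceeded Low by 0.55 on the log2 scale (SE 0.17, adjusted p = 0.0474), and High minus Low was 0.49 (SE 0.17, adjusted p = 0.0731).

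The means of log2 Signal per line placed the members called between selection groups as follows. These members were called from contrasts of the same line means, so the choice itself favoured such an order. How many of all probe sets tested have line means in such an order was not counted. Of the 28 members, 10 had both High lines above both Low lines, 4 had them below and 14 were mixed. For Control against Low these counts were 14, 3 and 11. For sNPF-R, Lk, ITP, AstC and Capa both Low lines were below the other 4 lines, and for CCHa2, Pdfr and AkhR both High lines were below the other 4. For Nplp1 and Dh44 both Control lines were above the other 4, and this held for ITP, AstC, Pdfr and AkhR as well. TkR99D was the exception among the 11, since neither its Low lines nor those of another group stood on one side of the other 4. Between the lines of a group, 1 member passed in High (TkR99D, beside 5.36% of all probe sets tested) and 3 passed in Control (beside 5.57%). Those in Control were TkR99D, Proc, higher in line 1 by 0.57 on the log2 scale (SE 0.16, adjusted p = 0.0487), and Dh31, for which line 1 minus line 2 was -0.51 (SE 0.13, adjusted p = 0.0361). The count of 3 was 1 without Control line 1 male replicate 1 or Control line 2 male replicate 2. In Low, limma called 0 of 28 between the lines, beside 3.87% of all probe sets tested, and 4 had an unadjusted p below 0.05.

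**Figure D4:**
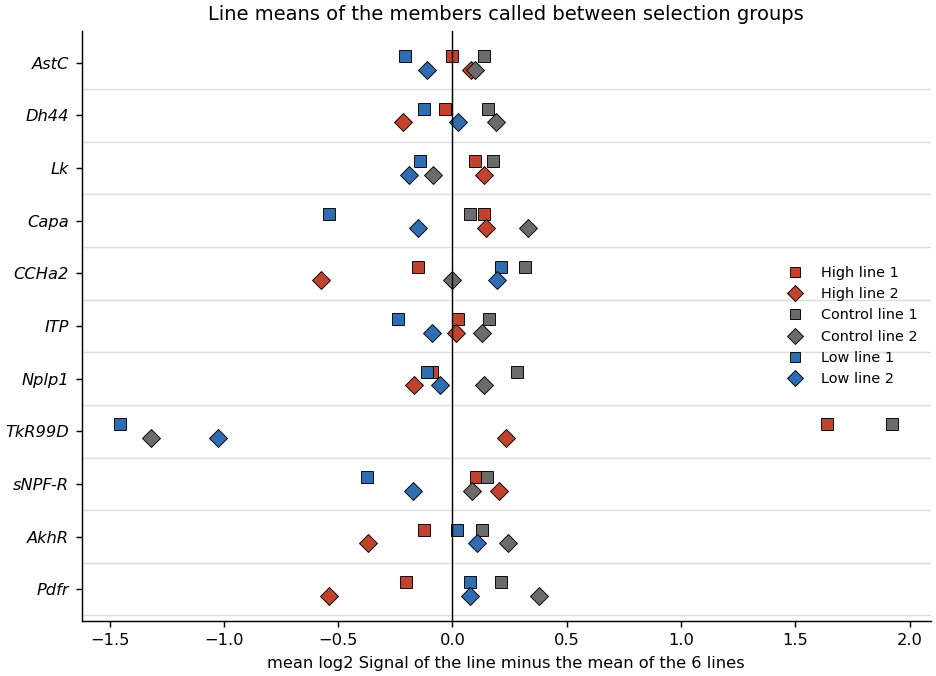
Mean log2 Signal of each line minus the mean of the 6 lines, for the 11 members called in at least 1 contrast between selection groups (squares line 1, diamonds line 2, red High, grey Control, blue Low). TkR99D spans 3.38 from Low line 1 to Control line 1, with the Control lines at opposite ends, while the other 10 members span less than 1.

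Some tissue markers also differed between the groups. Of 8 neuron markers tested, 3 were higher in Control than in Low and 0 lower, beside 9.38% and 6.15% of all probe sets tested. Their median difference was 0.286 on the log2 scale, and 1 was higher in High than in Low, beside 7.85%. None of the 8 was at 0 on any array. The summed Signal of these 8 ran in females from 2078 to 2216 in Control, 1674 to 2248 in High and 1574 to 1772 in Low, and in males from 2614 to 3130 in Control, 2475 to 2922 in High and 2246 to 2895 in Low. Low females were thus below all Control females in this sum. How many of all probe sets tested separated these samples in this way was not counted. The summed Signal of 9 ovary and egg markers in females ran from 62958 to 84434 in Low, 25196 to 56590 in High and 30792 to 53685 in Control, so every Low female sample was above all others. For this sum, too, the share over all probe sets tested was not counted. Single markers of that list were tested over both sexes, though the 9 summed to 197 to 411 in males. Of the 6 tested 1 was lower in High than in Low and 1 lower in Control than in Low, beside 7.89% and 6.15% of all probe sets tested. Their differences over both sexes ran from -2.36 to 0.39 and from -1.66 to 0.67 on the log2 scale. In females alone High minus Low ran from -4.1 to 0.0187, with a median of -0.504. Of 4 fat body markers tested, 2 were lower in High than in Low, beside 7.89% of all probe sets tested, with a median difference of -0.275 and a lowest of -1.34. Between High and Control 0 passed by limma's adjusted p, beside 11.2%, and their median was -0.194. These values stand beside those of CCHa2 and AkhR, both lower in High than in Control. The summed Signal of 6 fat body markers ran in females from 19732 to 20622 in High, 18054 to 23239 in Control and 20894 to 23548 in Low, and in males from 15127 to 21225, 18394 to 21604 and 20482 to 26758. Of 4 muscle markers tested, 0 passed in any of the 3 contrasts, but their Control minus Low median was 0.265, near that of the neuron markers. Between High and Low, 1 of 7 gut markers was higher, and 1 of 3 eye, 1 of 6 testis and 1 of 5 accessory gland markers were lower. The 5 accessory gland markers summed to 92.2 to 199.5 in females and 43123 to 68080 in males. In females 1 of them passed as lower, beside 14.5% of all probe sets tested, and in males 0 by limma's adjusted p, beside 5.57%. Their High minus Low differences in males ran from -0.944 to -0.193. The part of all these tissue markers in the differences of the members was not tested.

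The High minus Low difference was compared between the sexes for each member. In females 4 members passed, TkR99D, sNPF-R and Lk higher and CCHa2 lower, which is 14.3% beside 14.5% of all probe sets tested. In males TkR99D alone passed, 3.57% beside 5.57%. The test of the difference itself in limma called 0 of 28 members, beside 0.551% of all probe sets tested, with 1 member at an unadjusted p below 0.05. The line by sex interaction likewise called 0 of 28 at an adjusted p below 0.001, beside 0.0437%, with 2 at an unadjusted p below 0.05. For the members called in females other than TkR99D, the difference was 0.43 in females and 0.42 in males for sNPF-R, 0.29 and 0.28 for Lk, and -0.69 and -0.44 for CCHa2.

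Between the sexes, 12 of 28 members passed at an adjusted p below 0.001, 42.9% beside 69.5% of all probe sets tested, and 20 had an unadjusted p below 0.05. All 12 were higher in males in the deposited scaling, where 25.6% of all probe sets tested were higher in males and 43.9% higher in females, but after centring each array on its median over all probe sets 0 members were higher in males and 6 lower. The array medians differ by sex, from 93 to 117.5 in females and 143.2 to 157.7 in males. That centring moved the median difference of all probe sets tested from -0.195 to -0.718 on the log2 scale. The centring takes the same amount from every probe set, so relative to that median the members' median difference was 0.457 under either scaling. Under quantile normalization 8 members were higher and 2 lower in males, and after centring on the median of the probe sets tested 16 were higher and 0 lower. Sex differences are therefore given below as they stand in the deposited scaling, and their direction depended on which probe sets the centring used.

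The 12 were 10 precursors of 20 (sNPF, AstC, Akh, Pdf, Dh44, Dh31, Ms, Proc, ITP and Nplp1) and 2 receptors of 8 (sNPF-R and Dh31-R). The median male minus female difference was 0.363 on the log2 scale over the precursors and 0.00128 over the receptors. Males had the higher mean in all 6 lines for 15 of 28 members, beside 27.9% of all probe sets tested, and females for 2 (AkhR and Nplp2), beside 46.5%.

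Ms encodes myosuppressin, which slows the heart and the visceral muscle. Its female samples ran from 455 to 646 with a median of 529.5 (n = 12), and its male samples from 748 to 1036 with a median of 909 (n = 12). These ranges did not overlap, which was so for 1 member of 28 and for 45.8% of all probe sets tested (17.1% with males higher). The male minus female difference was 0.77 on the log2 scale (SE 0.07, adjusted p = 3.72e-08), and 0.25 after centring on the array median over all probe sets.

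For Dh44 the female samples ran from 77.7 to 149 with a median of 121 (n = 12) and the male samples from 137 to 292 with a median of 197 (n = 12). Their ranges overlapped between 137 and 149. The difference was 0.75 (SE 0.07, adjusted p = 5.74e-08), and 0.22 after that centring. The sNPF precursor ran from 170.2 to 338 in females and 302 to 550.1 in males, with a difference of 0.67 (SE 0.10, adjusted p = 1.97e-05), and 0.15 after that centring. Pdf ran from 112 to 214 in females and 192 to 467 in males, with a difference of 0.67 (SE 0.15, adjusted p = 0.000844), and 0.14 after that centring. The call on Pdf was the least stable of these, since it was lost on leaving out any of 18 of the 24 arrays.

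Akh ran from 212 to 341 in females and 297 to 464 in males, with a male minus female difference of 0.52 (SE 0.09, adjusted p = 6.33e-05) that became -0.01 after centring on the array median over all probe sets. Dh31, which encodes a diuretic hormone related to calcitonin, ran from 283 to 475 in females and 345 to 678 in males, with 0.50 (SE 0.08, adjusted p = 2.21e-05) becoming -0.03. The receptor Dh31-R ran from 153 to 205 in females and 201 to 303 in males, with 0.42 (SE 0.07, adjusted p = 4.36e-05) becoming -0.11. A second Dh31-R probe set, of lower Signal, gave 0.41 in the deposited scaling (adjusted p = 0.104), which did not pass. That probe set gave -0.54 for High minus Low (adjusted p = 0.207) and -0.55 for High minus Control (adjusted p = 0.240). The probe set used gave 0.06 and -0.08. The remaining calls, Proc at 0.48, Nplp1 at 0.41, sNPF-R at 0.39, ITP at 0.32 and AstC at 0.28, all fell below 0 after that centring, between -0.04 and -0.25.

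**Figure D5:**
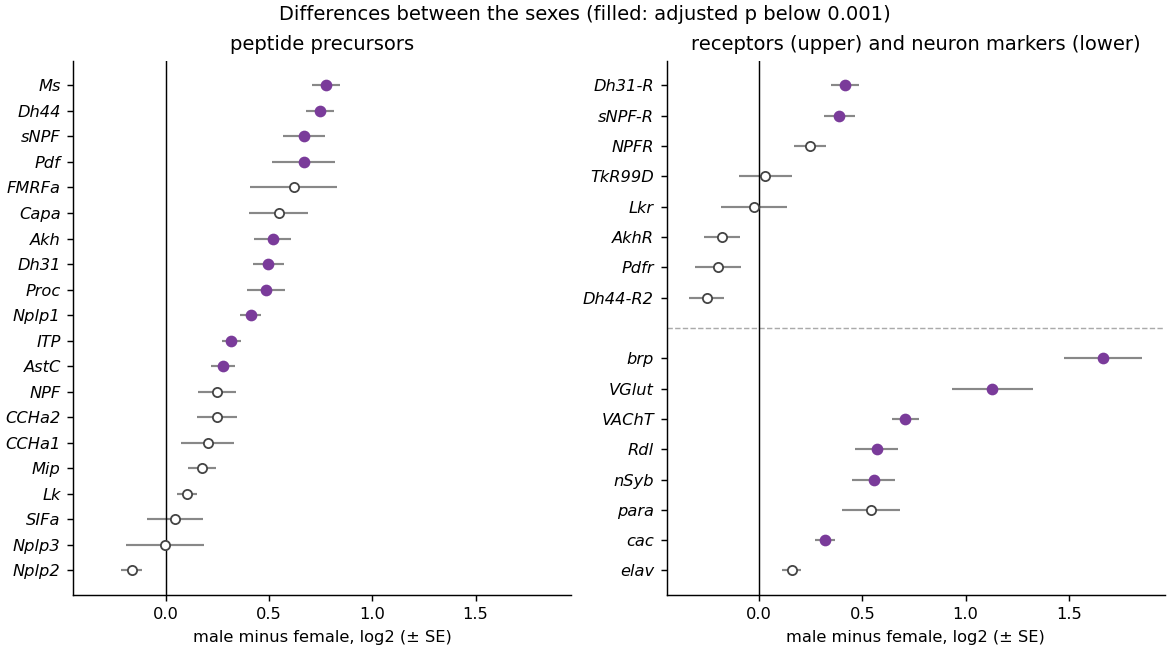
Male minus female log2 differences in Signal (points, with SE bars) in the deposited scaling, for 20 precursors, 8 receptors and 8 neuron markers; filled points had a limma adjusted p below 0.001. In this scaling 12 members lie right of 0 as filled points and none left of it, whereas centring each array on its median over all probe sets left 0 members called higher in males and 6 lower.

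The neuron markers lay on the same side in this scaling, with 6 of 8 called higher in males, 0 lower and a median difference of 0.562, which became 0.038 with 6 of 8 above 0 after centring on the array median over all probe sets. Their summed Signal was 1574 to 2248 in females and 2246 to 3130 in males. The ovary and egg markers summed to 25196 to 84434 in females and 197 to 411 in males, and 0 of the 6 tested were higher in males, with a median difference of -7.94. What share of the sex differences of the members goes with the ovary in the female samples was not tested.

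The members called in none of these comparisons numbered 10. They were the precursors NPF, FMRFa, SIFa, Mip, CCHa1, Nplp2 and Nplp3 and the receptors NPFR, Lkr and Dh44-R2. NPF, known for its roles in feeding and reward, ran from 113 to 254 and gave -0.03 for High minus Low (SE 0.11, adjusted p = 0.906), and its receptor NPFR ran from 50.6 to 96.1 and gave 0.15 (SE 0.10, adjusted p = 0.331). SIFa, whose peptide is known for inhibiting courtship between males, reached a Signal of 221 and gave -0.16 (SE 0.17, adjusted p = 0.581). FMRFa had the widest error of the members, with -0.08 (SE 0.26, adjusted p = 0.874), and 1 Control female sample at 20.7 while the highest array reached 155. Nplp2 ran from 17413 to 26324 and gave -0.04 (SE 0.06, adjusted p = 0.723), which did not pass.

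Of the genes that process or degrade neuropeptides, 14 were tested. Between High and Low 1 of the 14 passed, beside 15.7% of all probe sets tested, and this count was 0 to 2 on leaving out 1 array. It was Phm, the monooxygenase of peptide amidation, higher in High by 0.23 on the log2 scale (SE 0.07, adjusted p = 0.0299). Between High and Control 1 of the 14 passed, beside 11.2% of all probe sets tested. It was Ance, a peptidase related to angiotensin-converting enzyme, at -0.27 (SE 0.06, adjusted p = 0.00962). Of 6 further neuropeptide and receptor genes tested, 0 passed between High and Low by limma's adjusted p. Of them 4 had an unadjusted p below 0.05, and 0 to 3 passed on leaving out 1 array. Between High and Control 1 of the 6 passed, beside 11.2% of all probe sets tested. It was CNMa, which encodes CNMamide, higher in High by 1.03 (SE 0.20, adjusted p = 0.00499), at a median Signal of 92.9. Between the sexes 1 of the 6 passed, beside 69.5% of all probe sets tested. It was SPR, the sex peptide receptor, at -0.95 for male minus female in the deposited scaling (SE 0.06, adjusted p = 1.94e-09).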

How the data were processed

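The deposited values were linear Signal intensity of each probe set, which the authors had computed with MAS5, named in the submitters' processing notes, from Affymetrix arrays of biotin-labelled RNA, and no genome build was needed. Probe sets were named through the platform annotation, in which 13646 of 18769 had 1 gene symbol, 402 several and 4721 none, with symbols updated through gene identifiers. No further scaling was applied. All 24 arrays entered 1 fit of log2 Signal in limma 3.58.1 (R 4.3.3) with 12 means of line and sex and 12 residual degrees of freedom, over the 11439 probe sets of median Signal 75 or more. Differences are averages over lines and sexes, with p-values adjusted by the Benjamini-Hochberg method. The thresholds were an adjusted p of 0.05 for contrasts of selection groups and of lines within a group, and 0.001 for line, sex and interaction. The fit was checked on simulated data. Members named in full were those called for line or selection and the 6 with the largest sex differences among those called. The members and the lists were chosen with earlier results of these data known. The study collected 2 replicates of flies for each line and sex and extracted RNA from the 24 samples. Nothing states that the 2 replicate samples came from separate cultures, so p-values measure only the spread between these samples. The number of arrays limits the precision of each mean, and sums of marker Signal add the probe sets of a list. Alternatives covered scaling, the filter, the log offset, the test, the thresholds, blocks, and leaving out each array or line. Both other ways of centring all arrays and the contrasts of lines within a group were added after seeing the data. Tables of sequences were not used here.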

Additional observations from a re-analysis of the deposited data

Results flagged for a closer look

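For each of the 16 members named in full, the 4 arrays of each selection group and sex were compared, 96 groups of 4 in all, and 6 held an array far from the others. Chance flags about 1 in 20 such groups. The sNPF-R Signal of Low line 1 female replicate 2 was 99.6, below the other Low females at 132 to 139.7. The AstC Signal of Control line 2 female replicate 1 was 924, below the others at 1175 to 1213. The AkhR Signal of Low line 2 female replicate 1 was 1838, above the others at 1297 to 1337. The Dh44 Signal of High line 2 male replicate 2 was 242, above the others at 178 to 184. The CCHa2 Signal of Low line 1 male replicate 1 was 1448, above the others at 1086 to 1129. The Ms Signal of High line 2 male replicate 1 was 1036, above the others at 897 to 906. The 6 values came from 6 different arrays.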

How the results depend on the processing

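The unit of selection is the line, and the calls between selection groups depended on how lines entered the error. With each line reduced to its mean, limma passed 0 members in each of the 3 contrasts (4 to 5 at an unadjusted p below 0.05), and with line as a random block 1 passed in High against Low and 0 in High against Control and in Control against Low (4 and 7 at an unadjusted p below 0.05), where 3.48%, 1.6% and 2.2% of all probe sets tested passed. In the same order the deposited scaling and the fit by line and sex gave 6, 6 and 7. Leaving out High line 2 gave 2 members in High against Low and 2 in High against Control, and leaving out Control line 2 gave 3 in High against Control. In Control against Low, 4 passed without Low line 2, 2 without Low line 1, 1 without Control line 1, and 3 after median centring within each sex or over all arrays. The other thresholds gave 4 in Control against Low, 2 in High against Control, 20 between the sexes and 8 for the line effect. Centring over all arrays gave 6 between the sexes, in place of 12, and turned the sex difference of Akh to -0.0072 and of Dh31 to -0.0277. A filter at a median Signal of 150 removed TkR99D and left 0 line effects. Without High line 2 the High minus Low difference of Dh44 was 0.0161. Between the Control lines 1 member passed, in place of 3, with a filter at 150, no filter, the other thresholds, or without High line 1 or Low line 1. The causes of the other changes were not tested.

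Leaving out 1 array at a time gave 4 to 7 members in High against Low, 5 to 6 in High against Control, 4 to 9 in Control against Low, 10 to 13 between the sexes, 1 to 2 line effects and 0 interactions. The lowest count in Control against Low was without Low line 2 female replicate 2, and the 2 line effects were without Control line 1 male replicate 1. The High minus Low difference of TkR99D lay between 2.04 and 2.30 and passed in all 24 of these fits. With a replicate block 6 passed in each of the 3 contrasts, 11 between the sexes and 1 for line. The deviations of replicate 1 correlated at -0.257 to 0.256 over 66 pairs of line and sex, with a median of -0.0102 and 6 over 0.1. These values gave no sign of a pairing by replicate number common to all lines and sexes. Whether some lines or sexes shared a replicate batch cannot be told from them.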
